A study of Gallus gallus with 6 samples.

Results

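MicroRNA genes are short genes whose transcripts are cut by Drosha and Dicer into small RNAs that guide Argonaute proteins to messenger RNAs and lower their output. Many lie inside coding genes and can share the host's transcript, while others have transcripts and promoters of their own, so open chromatin beside them can belong to a promoter, to an enhancer or to the host gene. Several families are known from fat tissue of mammals, where they raise or restrain the formation of fat cells. The regions described here are the open regions next to microRNA genes in chicken abdominal fat, leaving out those at the ends of coding genes.

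The libraries are ATAC-seq, an assay in which Tn5 transposase inserts adapters where DNA is free of nucleosomes, from abdominal fat of 6 chickens of the NEAUHLF population, 3 birds labelled FL and 3 labelled LL. NEAUHLF is known as a broiler population selected both for high and for low abdominal fat. The sources used here give no sex, age or diet and name no cell sort, so a region can be open in fat cells or in any other cell of the depot. The authors called peaks in each library separately. Peaks that overlapped by at least 1 bp were merged into 100148 union regions in GRCg7b, and a library occupied a region when it had a peak there. A region was kept if its midpoint lay within 5 kb of a RefSeq gene of biotype miRNA and more than 1 kb from both annotated ends of every protein-coding gene. This left 740 of the 100148 regions, out of 1015 within 5 kb of a microRNA gene. They are part of the 85777 union regions more than 1 kb from coding gene ends, here called distal regions.

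The rule used no measured value beyond the presence of a peak. At its limits, the farthest regions kept lay 4980 bp from MIR12279 and 4991 bp from MIR6646-1, and the nearest ones left out lay 5003 bp from MIR6598 and 5008 bp from MIR135B. At the other limit, a region 1003 bp from an end of ASCL2 was kept and one 986 bp from an end of GPR157, beside MIR34A, was not. The table of genes holds 799 genes of this biotype, of which 5 carry small nucleolar or Cajal body RNA names, such as SCARNA15 and SNORD83A. It gives no strand and no exons, so upstream and downstream are not separated, and a region inside a gene may be exonic or intronic.

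The 6 libraries differed greatly in the number of peaks. The lists held between 23188 and 58060 peaks in FL and between 15628 and 73410 in LL, and replicate 1 had the longest list of either line. Read totals are not in the lists, so depth is unknown, but the number of fragments stacked at each peak summit could be solved from the authors' fold enrichment and p-value. This takes fold as (stack + 1)/(background + 1) and p as a Poisson tail. The settings are not given, so the stacked unit, here called a fragment, may be a single read. Over the regions near microRNA genes FL replicates 1 to 3 had median stacks of 50, 24 and 23 fragments, and LL replicates 1 to 3 of 66, 33 and 39. The smallest was 11, in FL replicate 3. The lowest background solved in each list was 8.26, 4.9 and 2.23 for FL replicates 1 to 3. For LL replicates 1 to 3 it was 8.1, 5.8 and 8.73, so the shortest list, of LL replicate 3, had the highest value. How these backgrounds relate to depth was not tested. The tissue label was checked at 6 fat cell genes, ADIPOQ, PPARG, FABP4, PLIN1, LPL and CEBPA, of which between 4 and 6 had a peak at an end in every library. Of 3 endothelial genes, CDH5, PECAM1 and KDR, 2 had such a peak in FL replicate 1, all 3 in LL replicate 1, and at most 1 in the other libraries. Peaks at ends of the myeloid genes SPI1, CSF1R and IRF8 numbered 1 to 3 per library, and both mesothelial genes, WT1 and MSLN, had one in every library. The fibroblast genes PDGFRA and COL1A2 both had one in each replicate 1, neither did in LL replicate 3, and 1 of them did in each other library. The red cell gene HBAD had one in both replicates 1 and in no other library.

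Most microRNA genes had an open region nearby in at least 1 bird, but few had one in every bird. Of the 799 genes, 494 (61.8%) had a distal region within 5 kb, a further 112 had regions only near coding gene ends, and 193 had none. Genes within 10 kb of each other were joined into 685 loci, of which 429 had at least 1 region and 229 of these exactly 1. Because neighbouring microRNA genes share regions, 70 of the 740 regions lay within 5 kb of 2 or more of them. The most regions at a locus were the 6 around MIR1729, inside the span of SEPTIN5 on chromosome 15, and each of these was occupied in between 1 and 3 libraries, always including LL replicate 1.

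The share of the 740 regions that was occupied followed the length of the list. FL replicates 1 to 3 occupied 59.6%, 20.1% and 17.7%, and LL replicates 1 to 3 occupied 84.5%, 19.6% and 10.9%. In the same libraries 51.9%, 25.6%, 15.8%, 70.6%, 18.2% and 10.9% of all distal regions were occupied. Both replicates 1 thus stood far above the other libraries in both sets, and FL replicate 2 was the library in which regions near microRNA genes were less often occupied than distal regions. FL birds averaged 32.5% ± 23.5 (SD, n = 3) and LL birds 38.3% ± 40.2 (SD, n = 3), so FL minus LL was -5.86 points, smaller than the spread within either line. Without LL replicate 1 the difference was 24.1 points, and without FL replicate 1 it was -20.5. It was above 0 also without FL replicate 2 (0.266) or FL replicate 3 (1.55), so leaving out any of 3 single birds turned its direction. With all 6 birds, FL minus LL was -2.11 points over distal regions and -0.958 points over all union regions.

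**Figure D1:**
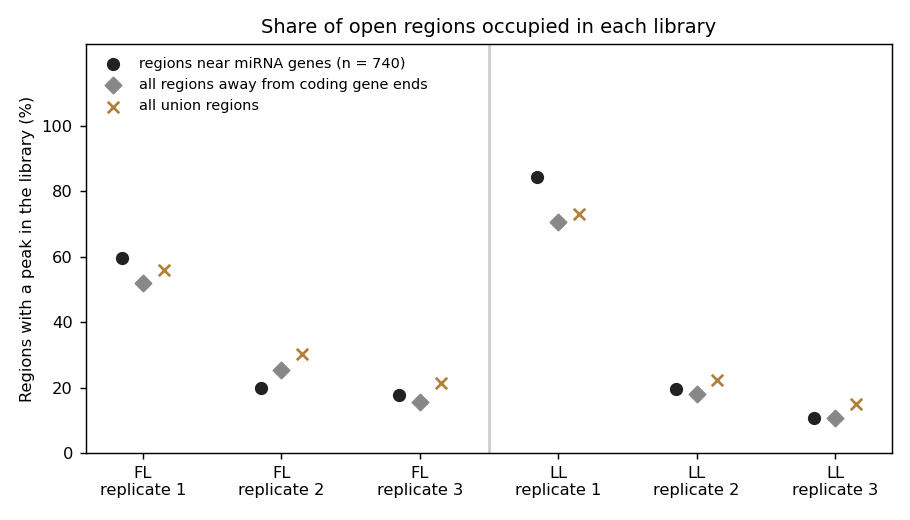
Share of regions with a peak in each library, in percent, for the 740 regions near microRNA genes (circles), all regions more than 1 kb from coding gene ends (diamonds) and all union regions (crosses). LL replicate 1, at 84.5%, and FL replicate 1, at 59.6%, lie far above the other 4 libraries, which lie between 10.9% and 20.1% for the regions near microRNA genes.

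Most of the regions were seen in few birds. Of the 740, 317 (42.8%) were occupied in exactly 1 library, against 47.3% of all union regions and 51.6% of distal regions. LL replicate 1 alone held 212 of these 317, FL replicate 2 held 51, FL replicate 1 held 43, FL replicate 3 held 10, LL replicate 2 held 1 and LL replicate 3 held 0. Another 221 were occupied in 2 libraries, 93 in 3, 43 in 4 and 34 in 5. Regions shared by more birds were wider, with a median of 241 bp for those in 1 library and 930 bp for those in all 6. Merging itself widens a region with each peak added, and distal regions in all 6 libraries had a median of 866 bp.

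All 6 birds shared 32 of the 740 regions (4.32%), against 7.59% of all union regions and 3.27% of distal regions. Shared means a peak somewhere in the region: peaks covered at least 0.5 of its length in all 6 libraries for 1 region (0.135%, against 1.2% of all union regions). These 32 regions lay at 31 loci and within 5 kb of 41 microRNA genes. Of the 32, 26 lay inside the span of a coding gene and 3 inside that of a long noncoding RNA gene. Of all 740 regions, 568 (76.8%) lay inside coding genes, against 61% of distal regions, and 586 of the 799 microRNA genes themselves lie inside coding genes. When both replicates 1 were left out, 314 regions near microRNA genes were found at all and 31 of them (9.87%, against 14.3% of all union regions) were occupied in the remaining 4 libraries. Without LL replicate 3, which had the shortest list, 52 regions (7.01%, against 9.67%) were occupied in the remaining 5.

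A profile by distance, and the contrast of its nearest with its farthest ring, were chosen after the data were seen, the nearest of 7 rings being the densest. On ground more than 1 kb from coding gene ends there were 14.6 regions per 100 kb within 1 kb of a microRNA gene, between 10.9 and 12.5 in each further kilobase up to 5 kb, and 11.7 at 10 to 20 kb. Counted per library, FL density within 1 kb was 8.68, 3.62 and 3.3 regions per 100 kb for replicates 1 to 3, and LL density was 12, 2.57 and 1.69. At 10 to 20 kb it was 6.72, 2.14 and 2.16 in FL and 9.77, 2.28 and 1.48 in LL. The ratio was above 1 in each of the 6 libraries, between 1.13 in LL replicate 2 and 1.69 in FL replicate 2, with a mean of 1.33 ± 0.227 (SD, n = 6). With −log10 q of at least 5, or with peaks covering at least 0.5 of the region, it was above 1 in 4 of the 6 libraries. At equal list lengths it was above 1 in 5. The libraries share the same regions and are not independent readings of this profile, so no test was made. Of the 32 regions open in every bird, 11 lay within 1 kb, as did 181 of all 740 regions.

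**Figure D2:**
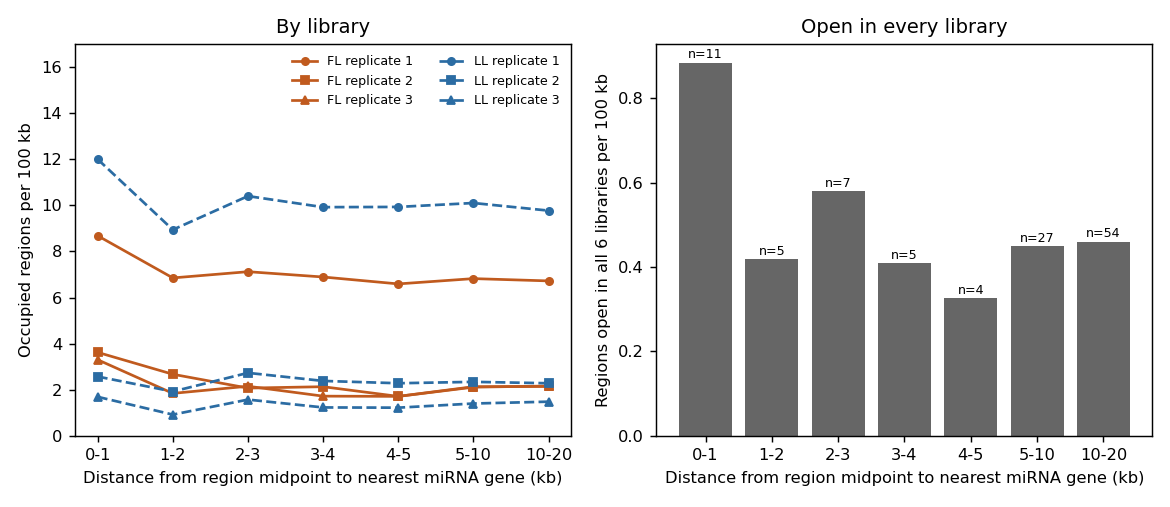
Density of open regions against distance from the nearest microRNA gene, on ground more than 1 kb from coding gene ends. Left, occupied regions per 100 kb in each library, FL in orange with solid lines and LL in blue with dashed lines; right, regions occupied in all 6 libraries per 100 kb, with their number. Each line is highest, or for LL replicate 2 second highest, in the first kilobase, where 11 regions were open in every library.

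The strongest of the regions open in every bird were found by ranking the peaks of each list by q-value, where 0% is the strongest, and taking the poorest of the 6 ranks. The first lay 1316 bp from MIR3528, inside the span of MRPS2, a gene of a mitochondrial ribosomal protein (chromosome 17, 8328034 to 8328938). FL replicates 1 to 3 ranked it at 3.63%, 18.5% and 17.4%, and LL replicates 1 to 3 at 2.16%, 5.97% and 2.27%, so no list placed it below 18.5%. Its fold enrichment in the authors' lists was 7.78, 4.44 and 7.38 in FL and 10.7, 5.52 and 5.74 in LL, on 42 to 331 fragments at the summit. A region 4110 bp from MIR1754, outside genes and 1264 bp from an end of the succinate receptor gene SUCNR1 (chromosome 9, 23145272 to 23146027), ranked at 7.46%, 17.1% and 18.9% in FL and at 4.24%, 5.75% and 5.25% in LL. Here every LL bird ranked above every FL bird.

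MIR6700, inside RESF1, and MIR202 followed. The MIR202 region, 3321 bp from a microRNA best known from vertebrate gonads (chromosome 6, 22291559 to 22292141), ranked at 13%, 3.72% and 1.4% in FL and at 6.6%, 10.7% and 20.9% in LL. The lines overlapped. The rest of the 15 best-ranked loci were those of MIR1561 in RAB11FIP4, MIR1707 in the collagen receptor gene DDR1, MIR1812, MIR17, MIR199A2, MIR6686 with MIR193B, MIR33-2, MIR145, SCARNA15 in PDE8A, MIR12221-1 in IQSEC1, and MIR1617. Their poorest ranks ran from 33.2% for MIR1561 to 50% for MIR1617. The microRNAs with 4-digit numbers in this group are chicken annotations for which no role is given here.

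**Figure D3:**
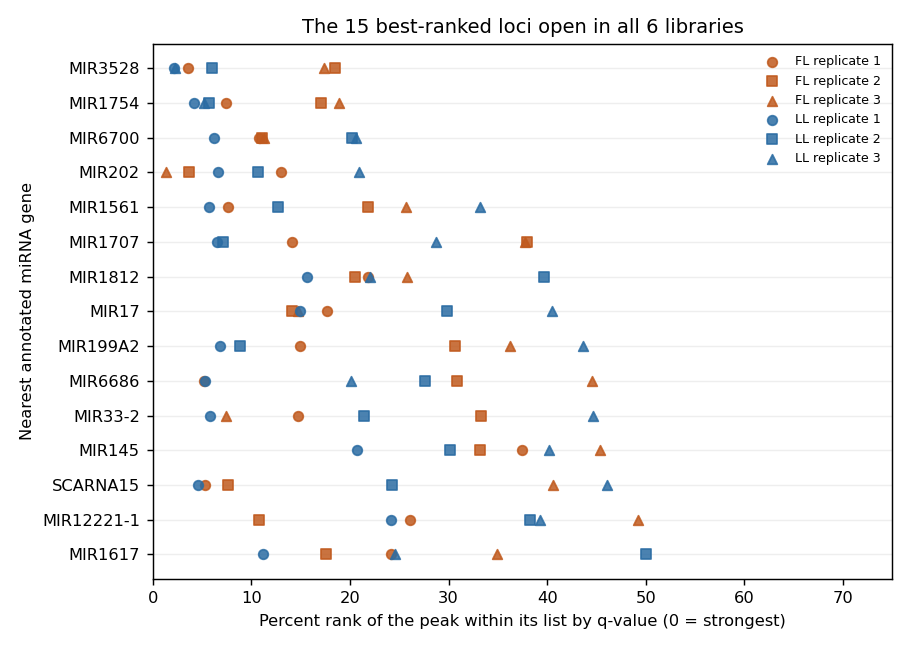
Percent rank by q-value of the peak in each library (horizontal axis, 0 is the strongest peak of a list) at the 15 best-ranked loci open in all 6 libraries, FL in orange and LL in blue. The MIR3528, MIR1754, MIR6700 and MIR202 regions stay within the first 20.9% of every list, and only MIR1754 shows the lines apart.

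The miR-17-92 cluster, whose small RNAs promote cell growth and, in mouse cells, fat cell formation, had an open region in every bird. It holds MIR17, MIR18A, MIR19A, MIR20A, MIR19B1 and MIR92A1 within the span of GPC5 on chromosome 1. The region at 148018300 to 148019245 lay 1621 bp from MIR17, on the MIR17 side of the cluster, which is the side that is transcribed first in the known gene order. It also lay 1388 bp from an annotated end of GPC5. The rule left out 2 more regions within 5 kb of MIR17, as lying at coding gene ends. Whether the region kept belongs to the cluster or to GPC5 was not tested. The region ranked at 17.7%, 14.1% and 14.7% in FL and at 14.9%, 29.8% and 40.5% in LL, with fold enrichments of 4.63, 4.88 and 8.11 and of 6.5, 4.26 and 3.29. LL replicate 1 overlapped the FL birds and LL replicates 2 and 3 ranked below them. The 12 genes of this cluster and its paralogs in the table lie at 2 loci. All 12 had a region, and 6 of them share the one open in all 6 libraries. The other 6, MIR363, MIR106A and their neighbours on chromosome 4, had regions in both replicates 1 and in no other library.

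MIR143 and MIR145, which in mammals are made together in smooth muscle, and of which miR-143 raised fat cell formation in human preadipocytes, shared a region on chromosome 13 (8111461 to 8112465). Its midpoint lay 232 bp from MIR145, inside a long noncoding RNA gene. The region ranked at 37.4%, 33.2% and 45.4% in FL and at 20.7%, 30.1% and 40.2% in LL. The ranks of the lines overlapped, and at equal list lengths the region was found in 5 libraries. Peaks in FL replicate 2 and LL replicate 3 were short and did not reach MIR145, as the plot of peaks around the loci shows, and peaks covered at least 0.5 of the region in 3 of the 6 libraries.

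MIR33-2 lies inside SREBF1, the gene of a transcription factor that drives fatty acid synthesis, and miR-33 is known from mammals as a brake on cholesterol export. The region at 4918887 to 4919365 on chromosome 14, 2166 bp from MIR33-2 and 4445 bp from the nearest end of SREBF1, was open in every bird. It ranked at 14.7%, 33.3% and 7.48% in FL and at 5.86%, 21.4% and 44.6% in LL, so the strongest and the weakest rank were both in LL. At equal list lengths of 15628 peaks it was still found in all 6 libraries.

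All 10 genes of the fibrosis and matrix list, which lie at 6 loci, had a region. The most widely shared region was open in 6 libraries for 2 genes, in 5 for 2 and in 1 to 4 for the other 6. The MIR199A2 region, inside DNM3 on chromosome 8 (4639034 to 4640029) and 337 bp from a microRNA known from fibroblasts, ranked at 14.9%, 30.7% and 36.2% in FL and at 6.85%, 8.81% and 43.6% in LL. The region beside MIR199B1, inside DNM1 on chromosome 17, ranked at 30.9%, 85.9% and 35.8% in FL and at 24.7%, 25.9% and 29% in LL. Every LL bird was above every FL bird. The MIR199B1 region was found in 3 libraries at equal list lengths and in 5 with −log10 q of at least 5. MIR29B1 and MIR29A, which lower collagen production in mammals, shared a region 576 bp from MIR29B1 that was occupied in 5 libraries, all but LL replicate 3. MIR21, a microRNA of growth and fibrosis, had 4 regions, and the most widely shared was occupied in FL replicate 1 and all 3 LL libraries. MIR29C and MIR29B2, a second pair of the same family, had regions in both replicates 1 and in no other library.

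**Figure D4:**
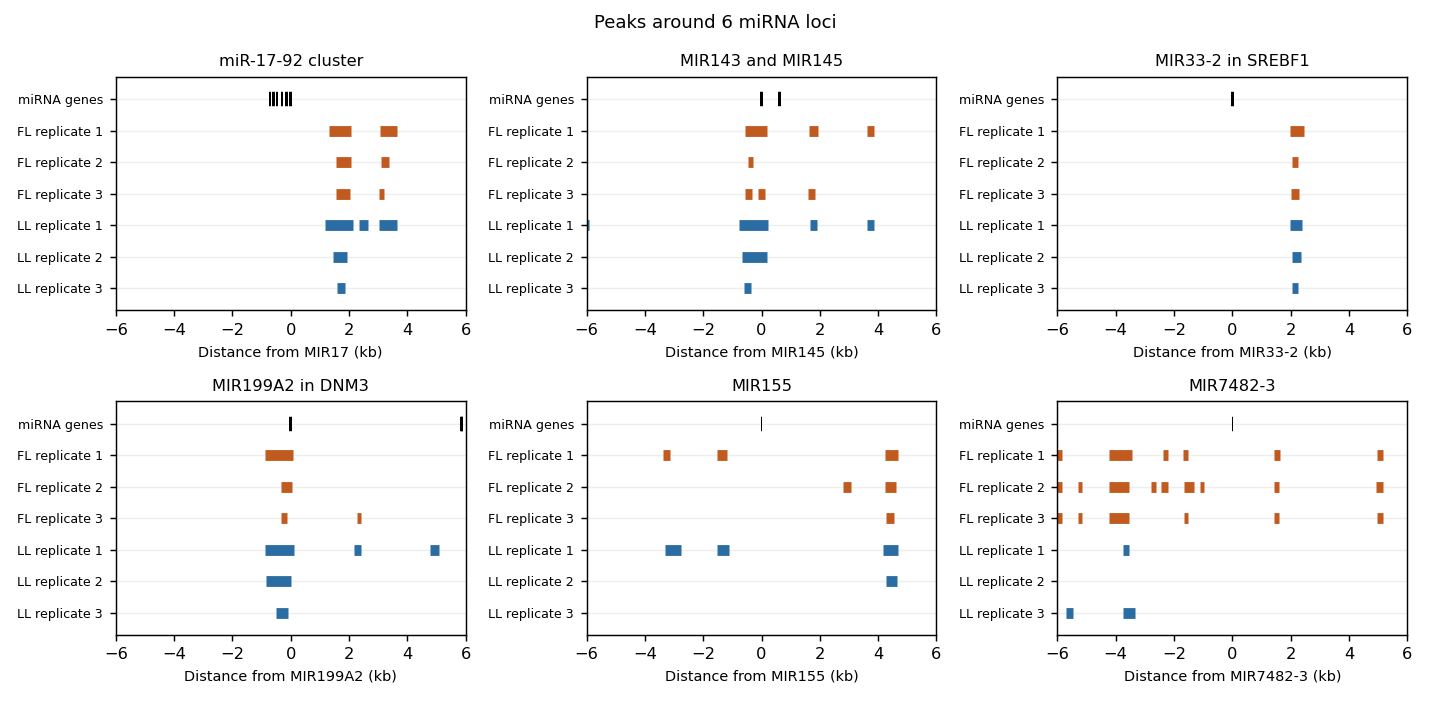
Peaks of each library (bars, FL in orange, LL in blue) and annotated microRNA genes (black) within 6 kb of MIR17, MIR145, MIR33-2, MIR199A2, MIR155 and MIR7482-3, drawn by distance in kb with coordinates rising to the right; the 6 loci were picked after their values were seen. At the first 4 loci all 6 libraries have a peak in one place, at MIR155 all but LL replicate 3 do, and around MIR7482-3 the FL libraries have many peaks and the LL libraries few.

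MicroRNA genes were also counted by 14 lists of families, against 61.8% of all microRNA genes with a region and 5.13% with one in all 6 libraries. Neighbouring genes of a list can share a region, so these are counts of genes and not of separate regions. The list of families that raised fat cell formation in mammalian cells had a region at 14 of 23 genes (60.9%), and at 3 of these, MIR143, MIR181A2 and MIR181B2, in all 6 libraries. MIR181A2 and MIR181B2 shared 1 region inside NR6A1, which ranked at 24.5%, 17.5% and 27.8% in FL and at 14.3%, 60.2% and 89.5% in LL. MIR210A, a microRNA induced by low oxygen, was open in 4 libraries, the 3 FL birds and LL replicate 1. The list that restrained fat cell formation had a region at 10 of 15 genes (66.7%), with MIR33-2 and MIR145 in 6 libraries and MIR155 and MIR130A in 5.

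MIR130A, which lowers PPARG in human fat cell precursors, had a region 2368 bp away on chromosome 15 (431142 to 432401) that ranked at 6.41%, 31% and 32.8% in FL and at 4.74% and 64.3% in LL replicates 1 and 2. LL replicate 3 had no peak there. The cluster of MIR23B, MIR27B and MIR24-2 on chromosome Z, of which miR-27 restrains fat cell formation in mammals, had 1 region in FL replicates 1 and 2 and LL replicate 1. The list of let-7 and its partners had a region at 11 of 15 genes. A region 4616 bp from MIR99A was occupied in 5 libraries, all but LL replicate 2, while the best-ranked region of MIR125B-1 and the most widely shared one of MIR125B2 were occupied in FL replicate 1 and LL replicates 1 and 2. Another of the 4 regions of MIR125B-1 had a peak in FL replicates 1 and 2 and LL replicate 1.

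Of the 8 blood and immune genes 6 had a region and 0 had one in all 6 libraries. MIR155, which is induced in activated immune cells, had a region 4397 bp away and 2478 bp from an end of MRPL39. This region was occupied in 5 libraries at 102592432 to 102592936 on chromosome 1, with ranks of 40%, 27% and 26.8% in FL and of 26.4% and 58.7% in LL replicates 1 and 2. MIR223, a microRNA of granulocytes and macrophages, was occupied in all but FL replicate 2, at ranks from 17% to 92.4%. MIR142, found throughout blood cells, was open in FL replicates 1 and 2 and LL replicate 1, and the region of MIR144 and MIR451B, of red cells, in both replicates 1. All 7 endothelial genes, which lie at 4 loci, had a region and 0 had one in more than 3 libraries. MIR126, the best known of them, lies inside EGFL7. Its region was 4484 bp away inside AGPAT2, an acyltransferase gene of triglyceride synthesis, and 1249 bp from an end of that gene. It was occupied in FL replicate 1 and LL replicates 1 and 3. By library, 7 endothelial microRNA genes had an occupied region in FL replicate 1, 6 in LL replicate 1, 3 in FL replicate 2 and at most 1 in the others. For blood and immune genes it was 6 in each replicate 1 and at most 2 in the others. Of all 799 microRNA genes, 348, 160 and 146 had an occupied region in FL replicates 1 to 3. In LL replicates 1 to 3 it was 439, 138 and 87, so both replicates 1 were highest there too. The part of endothelial and myeloid cells, whose marker peaks are given above, was not tested.

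In the muscle list 4 of 12 genes (33.3%) had a region, with MIR143 and MIR145 in 6 libraries, MIR1-2 inside MIB1 in 5 and MIR1C in 3. Of the muscle genes TNNT3 and MYOD1, 1 or both had a peak at an end in every library, and the part of muscle cells was not tested. In the liver and gut list it was 1 of 6, MIR122B, in FL replicate 2 alone with 21 fragments at the summit. Of 22 neuronal genes 7 had a region, among them MIR7B, which is also in the endocrine list, in 6 libraries, MIR9-4 in 3 libraries and MIR9-3 with MIR9B-1 in both replicates 1. Of 11 epithelial genes 2 had one, MIR203A and MIR203B, which shared a region in FL replicates 2 and 3 on 20 and 12 fragments. The 5 early embryo genes of the MIR302 and MIR367 cluster, inside LARP7, had 0. All 5 HOX cluster genes had a region, MIR196B in all 3 FL birds and LL replicate 1, MIR10A and MIR10B in both replicates 1, and MIR196A1 and MIR196A2 in LL replicate 1. Of the 5 endocrine genes, MIR7B had a region in 6 libraries and MIR375, of pancreatic islets, in LL replicate 1 alone.

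MIR7B lies inside HNRNPKL on chromosome W, which only hens carry. Its region at 90454 to 90966 had fold enrichments of 4.75, 4.42 and 4.96 in FL and of 3.63, 5.44 and 4.94 in LL. The number of W regions occupied was 41, 58 and 26 in FL and 32, 22 and 24 in LL, so all 6 libraries had peaks on W. Reads from similar sequence on other chromosomes may not be told apart from those of W. The sex of the birds was not tested. At equal list lengths the MIR7B region was found in 4 libraries. The nearest end of HNRNPKL was 1731 bp from the region.

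**Figure D5:**
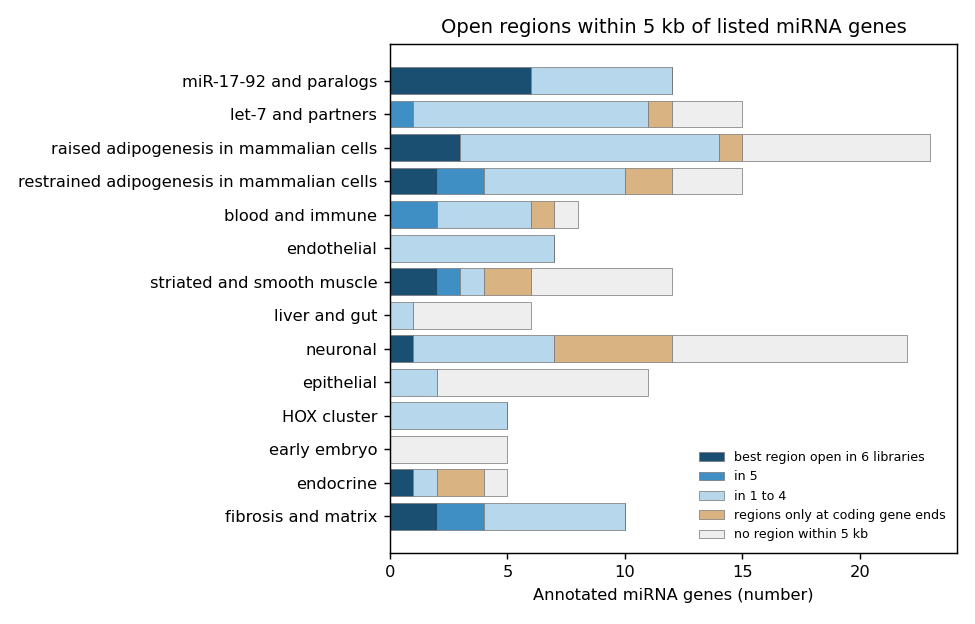
Number of annotated microRNA genes in each of 14 lists, divided by the library count of their most widely occupied region within 5 kb. The lists of miR-17-92, endothelial, HOX cluster and fibrosis genes, which lie at 2, 4, 5 and 6 loci, have a region at every gene, and the early embryo list at none.

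Between the lines, 2 of the 740 regions were occupied in all 3 FL and no LL birds, a share of 0.27%, against 0.209% of all union regions and 0.185% of distal regions. None (0 of 740) was occupied in all 3 LL and no FL birds, against 0.0849% of all union regions and 0.0886% of distal regions. Each such pattern has an exact two-sided permutation p of 0.1 over the 6 birds, the smallest possible with 3 against 3, so no region could pass 0.05 and none is called different here. Both FL regions lay beside copies of MIR7482 on chromosome Z. All 7 regions near these copies had a peak in at least 1 FL bird, and 1 of the 7 had one in any LL bird. They lay beside MIR7482-3 (4 of them), MIR7482-4 and MIR7482-6. The copies were looked at because both FL-only regions lay there, so the 7 are no separate observations. The share of all union regions with the same pattern was not computed. The region at 34757865 to 34758061, 1494 bp from MIR7482-3, ranked at 6.9%, 3.5% and 12.4% in the FL birds, with fold enrichments of 8.74, 5.82 and 9.34. The region at 34950768 to 34950989, 3111 bp from MIR7482-4 and inside a coding gene with a LOC number, ranked at 16.9%, 0.77% and 34.6%. Reads from near-identical copies may not be told apart, and without regions near MIR7482 the FL-only count was 0. Cutting every list to the 15628 strongest peaks left 209 regions near microRNA genes, with 3 FL-only (1.44%, against 0.941% of all union regions) and 8 LL-only (3.83%, against 1.69%). With 1 library left out, these shares rose in all union regions as well. The FL-only count was 7 of 730 without FL replicate 3 (0.959%, against 0.836%) and 8 of 553 without LL replicate 1 (1.45%, against 2.54%). The LL-only count was 14 of 698 without FL replicate 1 (2.01%, against 2.18%) and 8 of 742 without LL replicate 3 (1.08%, against 1.1%).

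When the ranks were compared instead of presence, with unoccupied libraries placed last, 5 regions ranked higher in every FL than in every LL bird (0.676%), against 0.997% of all union regions and 0.718% of distal regions. Another 5 ranked higher in every LL than in every FL bird (0.676%), against 0.474% of all union regions and 0.466% of distal regions. Both shares are near those of all regions. Of the 5 FL regions, 3 lay beside MIR7482-3 and MIR7482-4. The third of these, at 34752200 to 34753102, ranked at 4.29%, 0.602% and 14.9% in FL and at 98.2% and 64.5% in LL replicates 1 and 3, with no peak in LL replicate 2. The other FL regions were those of MIR12263 in DST, at 14.7%, 21.9% and 19.6% against 23.1% and 57.6%, and of MIR1570 in CHN1, at 18.8%, 17.8% and 23.5% against 38.8% and 69%, each with no peak in LL replicate 3.

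The 5 LL regions were those of MIR1754 and MIR199B1, given above, and of MIR6648-1, MIR1660 and MIR1782. The MIR6648-1 region, inside UNG, a DNA repair gene (chromosome 15, 6668562 to 6669181), ranked at 19.7%, 65.9% and 61.1% in FL and at 5.53%, 10.4% and 8.86% in LL. The MIR1660 region lay inside LAMA2, a laminin gene of the basement membrane, and ranked at 9.79%, 11.4% and 27.2% in LL, against 58.3% and 60.2% in FL replicates 1 and 2 and no peak in FL replicate 3. The MIR1782 region inside RNF152 ranked at 14.1%, 20.7% and 19.1% in LL and at 28.5% in FL replicate 1, with no peak in the other FL birds. Compared within same-numbered birds, 11 regions (1.49%) ranked higher in FL in all 3 pairs and 27 (3.65%) higher in LL, against 3.27% and 3.99% of all union regions. The counts of non-overlapping ranks moved with the birds included, and so did those of all union regions. Without LL replicate 1, 24 regions were higher in FL (4.34%, against 7.77% of all union regions) and 8 in LL (1.45%, against 0.748%). Without LL replicate 3, 5 were higher in FL (0.674%, against 1.11%) and 42 in LL (5.66%, against 4.16%). Without FL replicate 1, 12 were higher in FL (1.72%, against 2.32%) and 27 in LL (3.87%, against 4.36%). In each of these settings the line with the larger count near microRNA genes also had the larger share of all union regions. Without FL replicate 2 it was 12 in FL (1.74%, against 2.33%) and 6 in LL (0.87%, against 0.627%). Without FL replicate 3 it was 15 in FL (2.05%, against 2.92%) and 6 in LL (0.822%, against 0.522%). Without LL replicate 2 it was 5 in FL (0.676%, against 1.1%) and 10 in LL (1.35%, against 1.12%).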

How the data were processed

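Each library has its own deposited list of peaks. The submitters' processing notes name MACS3 3.0.0b1, bedtools 2.30.0, BWA, SAMtools, Trim Galore and FastQC, and the build GRCg7b. For settings, duplicate removal and any Tn5 shift, the entry is: not given in the sources used here. For each peak the authors' lists hold −log10 p, −log10 q, a score and the fold (ratio) of signal to local background. The score of the deposited lists entered no comparison. Their −log10 p only broke ties in −log10 q when the lists were cut to equal length. Fold and −log10 p were also solved for the whole number of fragments at each summit. A solution was found for every peak in the regions described. Fold enrichment is given per library as a description and was not compared between lists, and ranks are percent ranks by −log10 q. Depth is unknown because the lists hold no read totals, so no interval is given.

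Genes came from the RefSeq table of GRCg7b. Distances were measured from the region's midpoint to the gene, with 0 inside it. No p-value was computed for shares or counts over the regions. Each region's pattern was read against all 100148 union regions. The named regions are up to 15 loci occupied in all 6 libraries with the best poorest rank, and all regions called in 1 line. They are also up to 4 genes per list, the locus with most regions and those at the distance limits. MIR21, MIR29C with MIR29B2, MIR196A2 and another region of MIR125B-1 were added after their values were seen. So were the regions at the coding end limit, the MIR363 and MIR106A cluster, the other regions near MIR7482 copies and those with non-overlapping ranks. Members and lists were chosen with earlier results of these data known. Same-numbered libraries deviated together from the mean of their line over all regions (correlations 0.545, 0.255 and 0.157), so the numbers were taken as pairs in 1 alternative setting, the replicate block. All other comparisons, and the permutation over the birds, left the birds unpaired. The labels do not say that the numbers mark a shared batch, FL replicate 2 correlated more with LL replicate 3 (0.427) than with LL replicate 2, and number 1 marks the longest and number 3 the shortest list of each line. The merging, the rule, the FL-only call and the solver were tested on simulated data. The LL-only and rank calls were not scored there, and the simulated peaks followed the formula that the solver assumes. Python 3.11.15, numpy 2.4.6, pandas 2.3.3, scipy 1.17.1 and matplotlib 3.10.9 were used.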

Additional observations from a re-analysis of the deposited data

How the results depend on the processing

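The count of 740 regions rested on the long lists: it was between 553 and 742 with 1 library left out (lowest without LL replicate 1), 314 without both replicates 1, an alternative chosen after seeing the data, 209 at equal list lengths, 311 within 2 kb and 1445 within 10 kb. The regions open in all libraries numbered 30 (5.42%, against 9.5% of all union regions) to 52 (7.01%, against 9.67%) with 1 library left out. They numbered 20 with −log10 q of at least 5 (3.18%, against 7.44%) and 18 at equal list lengths (8.61%, against 17.5%). When peaks had to cover 0.5 of the region there was 1 (0.135%, against 1.2%). Against 7.59% of all union regions, there were 16 within 2 kb (5.14%), 59 within 10 kb (4.08%) and 20 more than 5 kb from coding gene ends (4.05%). The share of distal regions was not computed for these settings. MicroRNA genes with a region numbered 419 to 495 with 1 library left out, 195 at equal list lengths, 279 within 2 kb, 322 more than 5 kb from coding ends and 272 without both replicates 1.

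The 2 FL-only regions became 1 with peaks of at least 178 bp (0.149%, against 0.0694%) or within 2 kb (0.322%, against 0.209%). They became 3 at 0.5 coverage (0.405%, against 0.13%) and 8 within 10 kb (0.554%, against 0.209%). Peaks in all 3 FL and no LL libraries also lay 4.94 to 5.17 kb from MIR7482-3, and at -6.07 to -5.83 kb on its other side. How many of the 8 lay beside MIR7482 copies was not counted. The FL-only count was 0 more than 5 kb from coding ends or without MIR7482 copies, each against 0.209%. It was 2 to 8 with 1 library left out and 11 without both replicates 1 (3.5%, against 5.46% of all union regions). Without FL replicate 1 it was 3 (0.43%, against 0.853%), and without FL replicate 2 also 3 (0.435%, against 0.53%). It was 2 without LL replicate 2 (0.27%, against 0.237%) or LL replicate 3 (0.27%, against 0.262%). The shares for the other libraries left out are given above. The LL-only count became 8 at equal list lengths (3.83%, against 1.69%), 0 to 14 with 1 library left out and 16 without both replicates 1 (5.1%, against 4.22%). Regions ranking higher in every FL bird numbered 2 with peaks of at least 178 bp (0.298%, against 0.309%). They numbered 2 more than 5 kb from coding ends (0.405%, against 0.997%) and 2 without MIR7482 copies (0.273%, against 0.997%). At 0.5 coverage (0.405%, against 0.265%) or within 2 kb (0.965%, against 0.997%) there were 3. There were 13 within 10 kb (0.9%, against 0.997%), 5 to 24 with 1 library left out and 29 without both replicates 1 (9.24%, against 13.7%). Those higher in every LL bird numbered 18 at equal list lengths (8.61%, against 6.12%) and 2 at 0.5 coverage (0.27%, against 0.289%). They numbered 0 within 2 kb (against 0.474%) and 9 within 10 kb (0.623%, against 0.474%). More than 5 kb from coding ends there were 3 (0.607%, against 0.474%). The LL number was 6 to 42 with 1 library left out and 30 without both replicates 1 (9.55%, against 8.19%). With the replicate block the rank counts were 11 higher in FL (1.49%, against 3.27%) and 27 higher in LL (3.65%, against 3.99%). The presence counts of 2 and 0 and the mean difference in share of -5.86 points are the same with or without pairing by definition. They are therefore no check of the pairing. The SD of the paired differences in share was 16.8 points (n = 3). The difference in share ranged from -20.5 to 24.1 points with 1 library left out. The density ratio, whose alternatives were all added after seeing the data, lay between 1.16 and 1.43. Of the 18 named regions found in all 6 libraries, 16 stayed in all 6 with −log10 q of at least 5, 14 at equal list lengths, 17 with peaks of at least 178 bp and 1 at 0.5 coverage. The cause of these shifts was not tested.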
